A study of Homo sapiens with 38 samples.

Results

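The arrays compared were 8 of the 38 in the series: 4 from control A549 cells after 4 h of interleukin 1 beta (IL1B) and 4 from control A549 cells after 2 h of IL1B. They were chosen by their titles alone, and the untreated arrays entered no difference given here. A549 is a human lung adenocarcinoma line with traits of the alveolar epithelium. The cells of every group described here, in both arms, had a 48 h silencing step, 24 h without serum and then IL1B at 1 ng/ml. The other arm received siRNAs against ORMDL3, which encodes a brake on sphingolipid synthesis, and its 4 arrays at 4 h and 4 at 2 h are set beside the controls where that comparison is made. The labels used here do not name the agent that control cells received in the silencing step. Every group is the same cell line, and whether the replicates were grown as separate cultures is not stated. The p-values therefore rest on the spread among arrays, part or all of which may be technical. That spread was estimated within groups over all 38 arrays, the untreated ones included, unless a fit of fewer arrays is named. No array was taken from cells kept for 4 h without IL1B, so time under IL1B and time in culture cannot be told apart.

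IL1B binds its receptor on epithelial cells and, through MYD88 and the IRAK kinases, activates NF-kB and the MAP kinases. Immediate-early transcription factors and the inhibitors of NF-kB are transcribed in the first wave of such a response, and many of their mRNAs are short-lived. Later waves need new protein, and one of them in epithelial cells is the interferon-stimulated gene programme, in which secreted interferon acts through JAK kinases and a complex that holds IRF9 on genes that hold an interferon-stimulated response element. The interval from 2 to 4 h was looked at for genes of both kinds of wave.

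Levels were log2 expression values per probe set, so a difference of 1 is 2-fold, and every difference is control 4 h minus control 2 h unless another is named. Of 14488 probe sets, 1940 (13.4%) were called at an adjusted p under 0.05, and 3409 (23.5%) had an unadjusted p under 0.05. Of all probe sets, 948 (6.54%) rose and 992 (6.85%) fell. These shares are the background beside which the control counts of every gene list below stand. For the knockdown counts the background is 7.82% of all probe sets that rose and 6.81% that fell in that arm. Most changes were small, with a median size of 0.384 among the calls. Only 49 probe sets (0.338%) rose at least 2-fold, and 27 (0.186%) fell at least 2-fold. The median difference over all probe sets was -0.01. The 8 arrays had medians between 8.1 and 8.15. Among the 8 arrays, the 2 numbered 4 stood apart from the others. On the leading component of the residuals, which held 21.9% of their variance, these 2 arrays lay at 17.8 and 17.9, and the other 6 lay between -8.59 and -4.23. The remaining arrays numbered 4, in both arms, lay between 5.26 and 13.8 on it. The highest array with another number lay at 6.72 (knockdown 8 h replicate 3). Without the arrays numbered 4 in the whole series, 1507 probe sets were called, of which 1396 were among the 1940.

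Marker levels were looked at beside the labelled cell type, and not all epithelial markers were bright. KRT8, a keratin of simple epithelia, had a level of 13.07 ± 0.09 at 4 h and 13.10 ± 0.13 at 2 h (SD, n = 4 each), and KRT18 and KRT7 were above 12 in all 8 arrays. Other epithelial markers were much lower. EPCAM was at 7.09 ± 0.30 at 4 h and 7.24 ± 0.23 at 2 h (SD, n = 4 each). CLDN4 was at 6.18 ± 0.26 and 6.32 ± 0.24, and SCGB1A1 at 5.61 ± 0.20 and 5.59 ± 0.08. Of 13 lung epithelial markers measured, 1 rose and 2 fell, and the count that fell was 0 without control 4 h replicate 1 or 3 or without control 2 h replicate 2 or 3. The riser was LAMP3, a lysosomal protein of alveolar type II and dendritic cells that interferon also induces, which stood at 7.85 ± 0.11 at 4 h and 6.60 ± 0.13 at 2 h (SD, n = 4 each). The surfactant protein genes and the leukocyte marker PTPRC were not among the measured genes. None of 3 leukocyte markers was called by limma, at either setting of its variance model, and 1 rose at an unadjusted p under 0.05. Of these 3, CD68 was at 10.00 ± 0.10 at 4 h and 9.88 ± 0.02 at 2 h (SD, n = 4 each). CD14 was at 7.56 ± 0.10 and 7.69 ± 0.31, and ITGAM at 6.67 ± 0.09 and 6.49 ± 0.12. ORMDL3, the gene silenced in the other arm, was at 7.13 ± 0.30 in control cells at 4 h and 7.19 ± 0.13 at 2 h (SD, n = 4 each). In knockdown cells it was at 5.46 ± 0.10 at 4 h and 5.15 ± 0.13 at 2 h (SD, n = 4 each).

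The rise from 2 to 4 h was led by interferon-stimulated genes. Of 39 antiviral interferon-stimulated genes measured, 29 rose and 0 fell, with a median difference of 0.73, against -0.01 over all probe sets. None fell at an unadjusted p under 0.05 either, and 29 rose with the trended, robust variance model. In the knockdown arm 27 of the same list rose and 0 fell. Without the arrays numbered 4, 30 rose. Many of these genes were dim, and when dim probe sets were left out, 10 of the 13 that remained rose.

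MX1, a dynamin-like GTPase that blocks influenza and other viruses, had the largest rise of any named gene. Its levels at 4 h were 7.67, 7.61, 7.29 and 7.16, against 5.14, 5.37, 5.35 and 5.33 at 2 h. Every 4 h array lay above every 2 h array, and the lowest 4 h array was numbered 4. The difference was 2.13 ± 0.22 (SE), or 4.39-fold, with an adjusted p of 6.92e-09. IFIT1, which binds viral RNA that lacks the host cap methylation, was at 7.67, 8.04, 7.53 and 7.23 at 4 h and at 6.14, 5.92, 6.20 and 5.74 at 2 h. The groups did not overlap, and the array numbered 4 was the lowest of each group. IFIT1 rose by 1.62 ± 0.24 (SE, adjusted p = 8.98e-06). SAMD9L, an antiviral factor that restrains translation, was at 8.36, 8.69, 8.41 and 8.50 at 4 h and at 6.61, 6.85, 6.98 and 6.89 at 2 h. Its rise of 1.66 ± 0.14 (SE, adjusted p = 1.22e-10) had a smaller standard error than that of IFIT1, and the groups stood well clear of each other.

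The guanylate-binding proteins, GTPases that attack the vacuoles of intracellular pathogens, rose as well. GBP3 differed by 1.45 ± 0.10 (SE, adjusted p = 4.11e-12) and GBP4 by 1.43 ± 0.13 (SE, adjusted p = 1.03e-09), and for both the lowest 4 h array lay above the highest 2 h array. XAF1, a pro-apoptotic interferon target, rose by 1.38 ± 0.18 (SE, adjusted p = 7.77e-07). The list also held the cytosolic RNA sensors RIGI and IFIH1, with differences of 0.96 and 0.85, and the oligoadenylate synthetases OAS1, OAS2 and OAS3, with 1.07, 1.08 and 0.76, all of them called. PARP14, an ADP-ribosyltransferase of the interferon response, rose by 1.01 (adjusted p = 1.8e-12). The 10 members not called included ISG15, a ubiquitin-like modifier, with a difference of 0.18, and USP18, the protease that removes it, with a difference of -0.22.

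**Figure D1:**
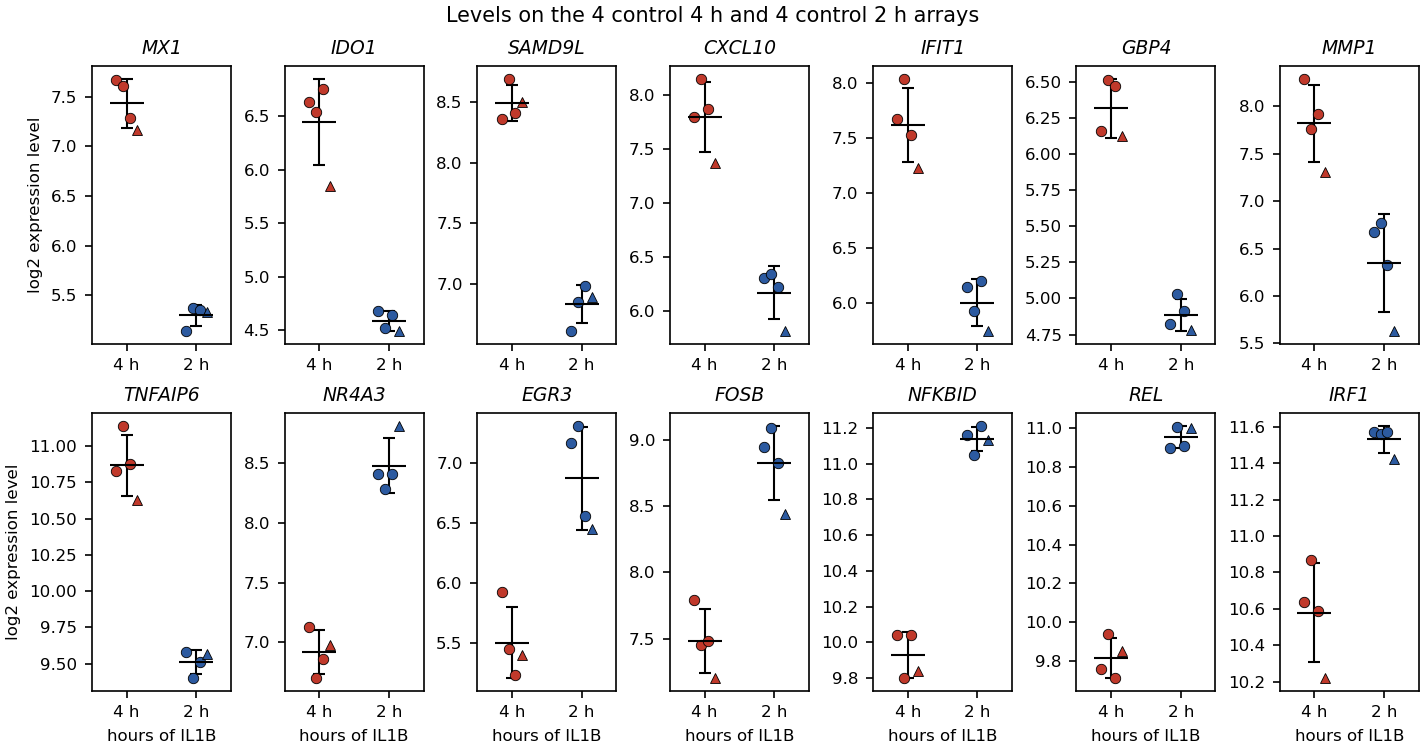
Log2 expression level of 14 genes (vertical axis, a separate scale for each gene) on the 4 control arrays at 4 h of IL1B (red) and the 4 at 2 h (blue). Triangles are the arrays numbered 4, and bars are the mean and SD of 4 arrays. MX1 spans 7.16 to 7.67 at 4 h and 5.14 to 5.37 at 2 h, and REL spans 9.71 to 9.94 at 4 h and 10.90 to 11.01 at 2 h.

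The chemokines that interferon induces moved with the antiviral genes: both measured members, CXCL10 and CXCL11, rose. They attract T cells and NK cells through CXCR3. CXCL10 had levels of 7.80, 8.15, 7.87 and 7.37 at 4 h, against 6.30, 6.34, 6.22 and 5.81 at 2 h. The groups did not overlap, and the array numbered 4 was the lowest at each hour. CXCL10 rose by 1.63 ± 0.18 (SE, adjusted p = 3.43e-08) and CXCL11 by 0.83 ± 0.19 (SE, adjusted p = 0.00173). IDO1, the enzyme that opens the tryptophan ring and an interferon target, was at 6.63, 6.54, 6.75 and 5.85 at 4 h and at 4.68, 4.52, 4.64 and 4.49 at 2 h. The 4 h array numbered 4 was well below the other 3, yet above every 2 h array. The rise of IDO1 was 1.86 ± 0.24 (SE), with an adjusted p of 9.3e-07.

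The promoters of 3 of these risers are shown because each holds the letters of the response element through which interferon acts. Each line is the RefSeq sequence (GRCh38.p14) from 250 bases before to 50 bases after the annotated start, read in the direction of the gene. Capitals mark matches to GAAA, any 2 bases and GAAA again, on either strand. The windows are chr21:41420308-41420607 on the plus strand for MX1, chr10:89392373-89392672 on the plus strand for IFIT1 and chr4:76023448-76023747 on the minus strand for CXCL10.
MX1: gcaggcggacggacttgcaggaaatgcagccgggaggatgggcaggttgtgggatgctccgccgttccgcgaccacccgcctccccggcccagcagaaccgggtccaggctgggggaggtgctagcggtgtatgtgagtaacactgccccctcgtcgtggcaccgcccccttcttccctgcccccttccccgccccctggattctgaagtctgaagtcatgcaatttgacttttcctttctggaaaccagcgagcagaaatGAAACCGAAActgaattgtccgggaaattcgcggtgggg
IFIT1: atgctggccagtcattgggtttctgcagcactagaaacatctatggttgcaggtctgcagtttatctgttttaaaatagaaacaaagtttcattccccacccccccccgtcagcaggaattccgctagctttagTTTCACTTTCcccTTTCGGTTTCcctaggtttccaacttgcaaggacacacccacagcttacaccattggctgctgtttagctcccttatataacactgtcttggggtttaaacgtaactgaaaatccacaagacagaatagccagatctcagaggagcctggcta
CXCL10: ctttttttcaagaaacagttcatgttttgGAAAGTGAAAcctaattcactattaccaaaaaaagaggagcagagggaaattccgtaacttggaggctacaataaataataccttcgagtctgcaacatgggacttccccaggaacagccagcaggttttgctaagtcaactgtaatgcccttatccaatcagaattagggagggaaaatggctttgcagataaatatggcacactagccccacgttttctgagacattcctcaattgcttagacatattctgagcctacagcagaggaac

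In MX1 the match begins at position 12 after the start, in IFIT1 the 2 matches begin at positions -116 and -103 on the opposite strand, and in CXCL10 the match begins at -221. Promoter windows were found for 34 of the genes that rose at least 2-fold, and 8 of them (23.5%) held these letters on either strand. Among all measured genes with a window the share was 241 of 9531 (2.53%), and among all 27305 windows it was 3.65%. Of the 31 antiviral genes with a window, 21 (67.7%) held it, which is a description of a list that was assembled as interferon targets. Among the 17 genes that fell at least 2-fold, 0 held it. The AP-1 element, searched as TGANTCA, stood in 9 of the 34 risers (26.5%), in 1 of the 17 fallers (5.88%) and in 4.59% of all measured genes. The cyclic AMP element TGACGTCA stood in 0 of the 34 risers and 0 of the 17 fallers, against 3.26% of all measured genes. In sets this small, a count of 0 cannot be told from that share. Among all called genes with a window, whatever their size of change, 697 rose and 699 fell. The interferon response element stood in 6.6% of these risers and 1.72% of these fallers. The AP-1 element stood in 6.89% and 3.29%, and the cyclic AMP element in 2.15% and 3.43%. A match is only a run of letters within 300 bases and shows no binding.

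The factors that carry the interferon signal moved in both directions. Of 22 interferon regulatory factors and JAK-STAT genes measured, 6 rose and 3 fell, with a median difference of 0.10. Without control 4 h replicate 2, only 3 rose. IRF9, the DNA-binding part of the complex that reads the response element, had levels of 8.72, 8.92, 9.11 and 8.87 at 4 h, against 8.09, 8.05, 7.99 and 7.87 at 2 h. The groups did not overlap, and IRF9 rose by 0.91 ± 0.13 (SE, adjusted p = 4.27e-06). IRF7, which amplifies interferon transcription, rose by 0.68 ± 0.16 (SE, adjusted p = 0.00274), and IRF2 rose by 0.65 ± 0.06 (SE, adjusted p = 9.78e-10).

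IRF1 went the opposite way. IRF1 is an early NF-kB target that drives many of the same promoters, and its levels were 10.64, 10.87, 10.59 and 10.22 at 4 h and 11.57, 11.56, 11.57 and 11.42 at 2 h. The 2 h arrays lay close together, and all of them were above the 4 h arrays. IRF1 fell by 0.95 ± 0.17 (SE, adjusted p = 0.000134). SOCS2 and SOCS3, inhibitors of JAK-STAT signalling, had called differences of -0.61 and -0.36, while SOCS1 had a difference of 0.13 that was not called (adjusted p = 0.53). IFNB1 is not analysed here. IFNL3, a type III interferon, had a difference of -0.17 (adjusted p = 0.61).

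Genes of antigen presentation by MHC class I changed by small amounts. Of 7 measured, 5 rose and 0 fell, with a median difference of 0.31, and none fell at an unadjusted p under 0.05. The count was 2 when only the 8 arrays were fitted and 3 when a replicate block was added to that fit. It was 3 without control 4 h replicate 2 and without control 4 h replicate 4. ERAP1, the peptidase that trims peptides in the endoplasmic reticulum, rose by 0.44 ± 0.07 (SE, adjusted p = 4.78e-05).

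Among the immediate-early transcription factors, NR4A3, EGR3 and FOSB fell more than 2-fold. Of 27 measured, 9 fell, 1 rose and 17 were not called, with a median difference of -0.24. Leaving out single arrays gave 9 to 12 that fell. Without all arrays numbered 1, 2, 3 or 4 the count was 8, 8, 7 and 11, and it was 8 when only the 8 arrays were fitted. In the knockdown arm 13 fell and 1 rose. NR4A3, an orphan nuclear receptor, fell most of all called genes with 1 symbol. Its levels were 7.13, 6.70, 6.86 and 6.98 at 4 h, against 8.41, 8.28, 8.41 and 8.81 at 2 h. No 4 h array reached the lowest 2 h array, and NR4A3 fell by 1.56 ± 0.17 (SE, adjusted p = 1.79e-08).

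EGR3, a zinc-finger factor of the early growth response family, was at 5.92, 5.45, 5.23 and 5.40 at 4 h and at 7.17, 7.31, 6.56 and 6.45 at 2 h. The 2 h arrays fell into a higher and a lower pair, both above every 4 h array. EGR3 fell by 1.37 ± 0.22 (SE, adjusted p = 3.35e-05). FOSB, an AP-1 subunit, was at 7.79, 7.45, 7.48 and 7.20 at 4 h and at 8.95, 9.09, 8.83 and 8.44 at 2 h, again without overlap, and fell by 1.35 ± 0.21 (SE, adjusted p = 1.63e-05). EGR1, NR4A1 and CSRNP1 fell by 0.68, 0.68 and 0.72. The single riser of the list was MYC, a growth-promoting factor, with a difference of 0.32 (adjusted p = 0.00045).

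FOS and ATF3 depended on the treatment of the array number. FOS had a difference of -0.40 ± 0.16 (SE, adjusted p = 0.105), and its adjusted p was 0.00644 with the replicate number as a block. ATF3, a stress-induced repressor, had a difference of -0.50 ± 0.18 (SE, adjusted p = 0.0602), and its adjusted p was 0.0407 with the block. Control 2 h replicate 4 was the lowest 2 h array for both genes. Without that array the adjusted p was 0.0286 for FOS and 0.0126 for ATF3.

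The feedback arms of the MAP kinase pathway were split. Of 16 phosphatases and Sprouty-type inhibitors measured, 4 rose and 3 fell, with a median difference of -0.06. SPRY4, an inhibitor of growth factor signalling, was at 9.36, 9.11, 9.26 and 9.13 at 4 h and at 10.25, 10.24, 10.02 and 10.03 at 2 h. The 2 h arrays all lay above the 4 h arrays, and SPRY4 fell by 0.92 ± 0.14 (SE, adjusted p = 9.56e-06). The MAP kinase phosphatase DUSP16 rose by 0.37 ± 0.07 (SE, adjusted p = 0.000187), and DUSP1 had a difference of -0.10 ± 0.09 (SE, adjusted p = 0.561) with overlapping groups.

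The REL subunit and 5 of the IkB genes fell, while NFKBIB and 3 subunit genes rose slightly. Of 11 NF-kB subunits and IkB proteins measured, 6 fell and 4 rose, with a median difference of -0.47. All 6 were also called lower in the knockdown arm, where 0 rose. The 4 risers, RELA, RELB, NFKB2 and NFKBIB, changed by 0.19 to 0.34. They were 1 when only the 8 arrays were fitted, 2 when a replicate block was added to that fit, and 1 without control 4 h replicate 4 or without control 2 h replicate 1.

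NFKBID, a nuclear IkB protein, had levels of 10.04, 9.80, 10.04 and 9.84 at 4 h, against 11.16, 11.05, 11.21 and 11.13 at 2 h. The gap between the groups was far wider than the spread within either. NFKBID fell by 1.21 ± 0.07 (SE, adjusted p = 8.09e-14). NFKBIA, the classical IkB that holds NF-kB in the cytoplasm and is itself an NF-kB target, was at 12.81, 12.81, 12.81 and 12.77 at 4 h and at 13.30, 13.29, 13.25 and 13.26 at 2 h. Its arrays lay close together in each group, and it fell by 0.47 ± 0.06 (SE, adjusted p = 5.61e-07). NFKBIZ, the IkB that licenses secondary targets, fell by 0.75 ± 0.06 (SE, adjusted p = 3.23e-11), and NFKBIE and BCL3 had called differences of -0.62 and -0.51.

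REL encodes the c-Rel subunit, and its levels were 9.76, 9.94, 9.71 and 9.85 at 4 h, against 10.90, 11.01, 10.91 and 11.00 at 2 h. The groups lay almost 1 log2 unit apart, and REL fell by 1.14 ± 0.08 (SE, adjusted p = 5.62e-12). Its promoter is shown because c-Rel is one of the proteins that bind the NF-kB element, and the window of its own gene holds the letters GGG, any 2 bases and TTTCC. The window is chr2:60881324-60881623 on the plus strand of GRCh38.p14, from RefSeq, and capitals mark the match, which begins at position -46 on the opposite strand.
REL: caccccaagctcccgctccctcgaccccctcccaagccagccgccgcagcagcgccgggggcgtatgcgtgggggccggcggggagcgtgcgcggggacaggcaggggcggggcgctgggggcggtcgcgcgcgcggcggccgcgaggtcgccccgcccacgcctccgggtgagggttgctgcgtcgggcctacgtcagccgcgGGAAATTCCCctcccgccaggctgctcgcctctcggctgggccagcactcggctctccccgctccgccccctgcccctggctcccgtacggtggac
The element stood in 1 of the 17 fallers (5.88%), in 3 of the 34 risers (8.82%) and in 2.28% of all measured genes. Among all called genes with a window, it stood in 2.15% of 699 fallers and 3.87% of 697 risers.

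Other feedback regulators of NF-kB included TNIP3, CYLD and TNIP1, which rose, and TNFAIP3, which fell. Of 16 measured, 6 rose, 2 fell and 8 were not called, with a median difference of 0.18. TNIP3, an A20-binding inhibitor, was at 7.51, 7.98, 7.81 and 7.79 at 4 h and at 6.67, 6.55, 6.45 and 6.32 at 2 h. All 4 h arrays lay higher, and TNIP3 rose by 1.28 ± 0.11 (SE, adjusted p = 1.62e-10). The deubiquitinase CYLD rose by 0.61 ± 0.09 (SE, adjusted p = 5.66e-06) and TNIP1 by 0.54 ± 0.08 (SE, adjusted p = 5.79e-06). TNFAIP3, which encodes A20 itself, fell by 0.35 ± 0.07 (SE, adjusted p = 0.000636), with levels of 11.79 to 11.92 at 4 h and 12.15 to 12.27 at 2 h.

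Proteins that shorten the life of mRNAs were mixed. Of 16 measured, 5 rose and 3 fell, with a median difference of -0.00, and only 1 fell without control 4 h replicate 2, without control 4 h replicate 3 or without control 2 h replicate 2. TOB1, which recruits the deadenylase complex, was at 11.32, 11.29, 11.42 and 11.30 at 4 h and at 10.54, 10.56, 10.65 and 10.49 at 2 h. All 4 h arrays lay above the 2 h arrays, and TOB1 rose by 0.77 ± 0.07 (SE, adjusted p = 1.24e-09).

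**Figure D2:**
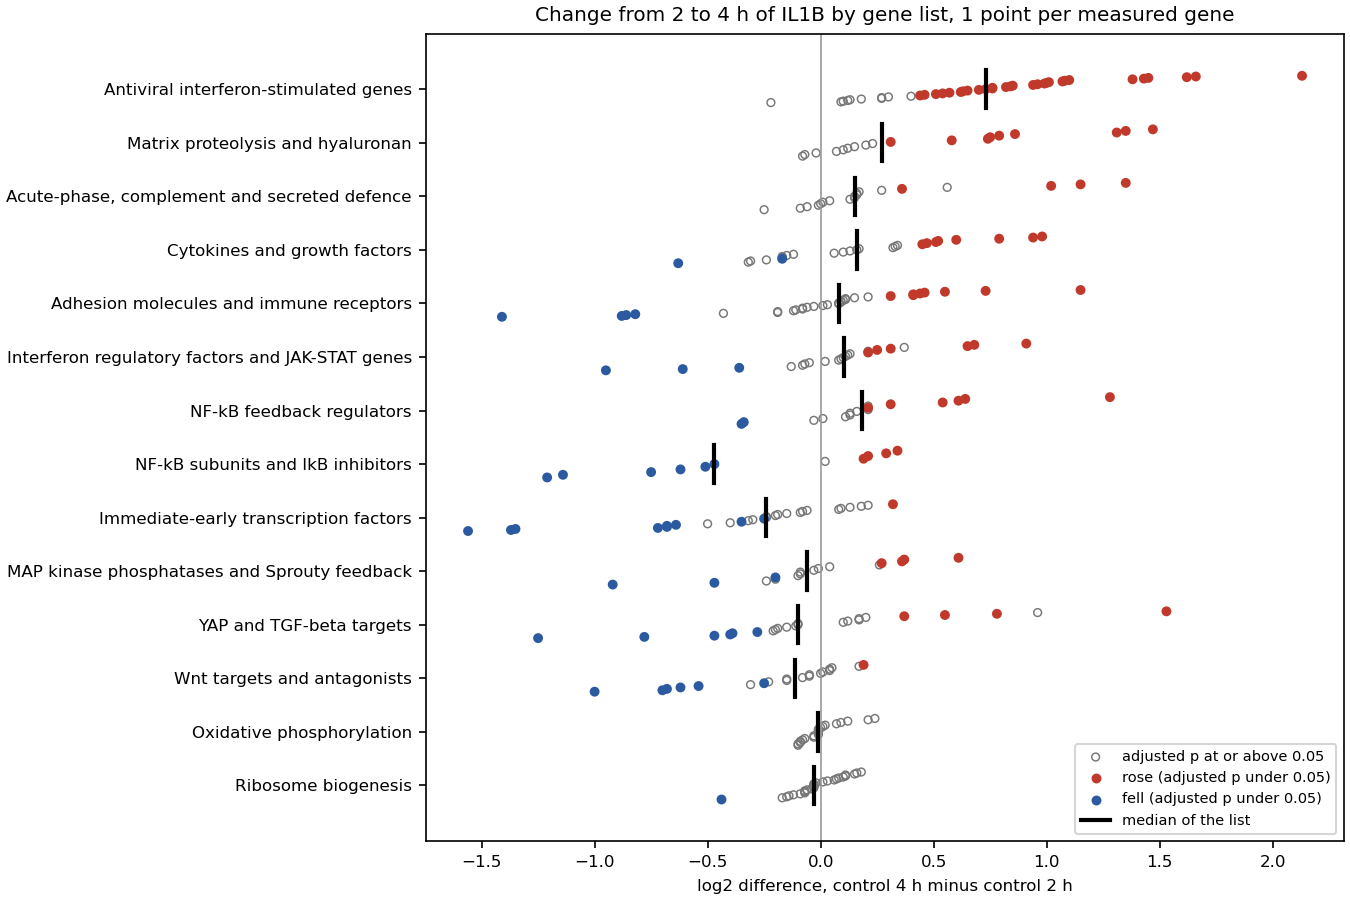
Log2 difference, control 4 h minus control 2 h (horizontal axis), for each measured gene of 14 gene lists, with called risers in red, called fallers in blue, uncalled genes as open circles and the list median as a bar. The antiviral list has its median at 0.73 and the NF-kB subunit and IkB list at -0.47, while oxidative phosphorylation and ribosome biogenesis lie near 0.

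Several chemokines that IL1B is known to induce were not called between 2 and 4 h. CXCL8, the neutrophil attractant interleukin 8, had levels of 12.82, 12.94, 12.79 and 12.85 at 4 h, against 12.81, 12.91, 12.62 and 12.96 at 2 h. The groups overlapped, and the difference of 0.03 ± 0.10 (SE, adjusted p = 0.914) was smaller than the spread between arrays. CCL20, which attracts dendritic and Th17 cells, gave 0.03 ± 0.15 (SE, adjusted p = 0.933), and the adhesion molecule ICAM1 gave -0.08 ± 0.11 (SE, adjusted p = 0.751), both with overlapping groups. Among 5 neutrophil-attracting CXC chemokines measured, 2 rose and 0 fell, and 1 fell at an unadjusted p under 0.05 and with the replicate number as a block. CXCL6 rose by 0.74 ± 0.10 (SE, adjusted p = 1.53e-06) and CXCL5 by 0.51 ± 0.09 (SE, adjusted p = 0.00018).

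CCL5 was the single riser among 6 CC chemokines and fractalkine measured, of which 0 fell. CCL5, which attracts T cells and is a target of both NF-kB and interferon regulatory factors, was at 11.27, 11.16, 11.37 and 11.53 at 4 h and at 11.15, 10.93, 10.64 and 10.60 at 2 h. The lowest 4 h array was only just above the highest 2 h array. CCL5 rose by 0.50 ± 0.15 (SE, adjusted p = 0.0167). The adjusted p was 0.0502 with the replicate number as a block, 0.066 without control 4 h replicate 4, 0.0685 without control 2 h replicate 3 and 0.0741 without control 2 h replicate 4.

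Cytokines and growth factors changed in both directions. Of 25 measured, 8 rose, 2 fell and 15 were not called, with a median difference of 0.16. In the knockdown arm 2 rose and 7 fell, with a median difference of -0.03. Over all probe sets of that arm 7.82% rose and 6.81% fell, so the 2 risers lay near the background. Without control 2 h replicate 3 or without control 2 h replicate 4, 5 rose, and with the replicate number as a block 4 fell. Leaving out single arrays gave as few as 1 that fell (control 4 h replicates 1 and 3 and control 2 h replicates 1, 2 and 3). EBI3, a subunit of interleukins 27 and 35, had levels of 9.71, 9.61, 9.89 and 9.78 at 4 h, against 8.81, 8.85, 8.72 and 8.69 at 2 h. No 2 h array reached the lowest 4 h array, and EBI3 rose by 0.98 ± 0.09 (SE, adjusted p = 6.78e-10). GDF15, a stress-induced cytokine, rose by 0.94 ± 0.09 (SE, adjusted p = 7.07e-10), and INHBA, the activin A subunit, by 0.79 ± 0.15 (SE, adjusted p = 0.000192).

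IL1A, the sister cytokine that signals through the same receptor, was at 10.57, 10.82, 10.57 and 10.52 at 4 h and at 11.33, 11.40, 11.13 and 11.12 at 2 h. Every 4 h array was below every 2 h array, and IL1A fell by 0.63 ± 0.17 (SE, adjusted p = 0.0129). Without all arrays numbered 1, 2 or 3 in the series, the limma adjusted p was 0.0672, 0.0665 and 0.0691. IL6, the inducer of the hepatic acute phase, had levels of 10.72 to 10.94 at 4 h and 10.37 to 10.69 at 2 h. The groups did not overlap, but the difference of 0.32 ± 0.12 (SE) had an adjusted p of 0.0782, and of 0.0383 with the replicate number as a block. Without control 2 h replicate 1 its adjusted p was 0.0451.

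Adhesion molecules and immune receptors changed gene by gene. Of 32 measured, 8 rose and 4 fell, with a median difference of 0.08. IL15RA, which presents interleukin 15 to neighbouring cells, was at 9.04, 9.17, 9.18 and 9.11 at 4 h and at 8.04, 7.90, 7.99 and 7.99 at 2 h. The spread within each group was small beside the gap, and IL15RA rose by 1.15 ± 0.06 (SE, adjusted p = 7.31e-15). NOD2, a sensor of bacterial cell wall, and VCAM1, a leukocyte adhesion molecule, had called differences of 0.73 and 0.55. CD69, a lectin known as an early activation marker of lymphocytes, was at 4.05, 4.49, 4.46 and 3.86 at 4 h and at 5.74, 6.10, 5.81 and 4.86 at 2 h. Both groups had their lowest value on the array numbered 4, and they did not overlap. CD69 fell by 1.41 ± 0.17 (SE, adjusted p = 1.65e-07), CD83 by 0.88 ± 0.11 (SE, adjusted p = 7.91e-07) and the ephrin receptor EPHA2 by 0.82 ± 0.07 (SE, adjusted p = 3.46e-10).

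Genes that remodel the matrix were higher where they changed: 9 of 18 measured rose and 0 fell, with a median difference of 0.27. None fell at an unadjusted p under 0.05. MMP1, the interstitial collagenase, was at 8.29, 7.76, 7.92 and 7.31 at 4 h and at 6.68, 6.77, 6.33 and 5.63 at 2 h. The array numbered 4 was the lowest at each hour, and the groups did not overlap. MMP1 rose by 1.47 ± 0.22 (SE, adjusted p = 7.19e-06). TNFAIP6, which links hyaluronan chains in inflamed tissue, was at 10.83, 11.14, 10.88 and 10.63 at 4 h and at 9.58, 9.40, 9.51 and 9.57 at 2 h. It stood more than 1 log2 unit higher on each 4 h array than on any 2 h array, and rose by 1.35 ± 0.16 (SE, adjusted p = 9.2e-08). OLR1, the scavenger receptor for oxidised lipoprotein, rose by 1.31 ± 0.17 (SE, adjusted p = 1.03e-06), and the protease ADAMTS9 rose by 0.86 ± 0.10 (SE, adjusted p = 2.11e-07).

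Among secreted defence proteins, LCN2 and PI3 rose more than 2-fold. Of 19 acute-phase, complement and secreted defence genes measured, 4 rose and 0 fell, with a median difference of 0.15, and none fell at an unadjusted p under 0.05. LCN2, which withholds iron from bacteria, was at 10.57, 10.75, 10.83 and 10.53 at 4 h and at 9.36, 9.62, 9.48 and 8.79 at 2 h. The 2 h array numbered 4 was the lowest, and the groups did not overlap. LCN2 rose by 1.35 ± 0.22 (SE, adjusted p = 3.45e-05). PI3, the elastase inhibitor elafin, rose by 1.15 ± 0.22 (SE, adjusted p = 0.000365), and complement C3 by 0.36 ± 0.06 (SE, adjusted p = 4.78e-05).

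Tryptophan, purine and metal handling genes gave 6 risers and 0 fallers among 21 measured, with a median difference of 0.07 and no faller at an unadjusted p under 0.05. Beside IDO1 these included SLC39A8, a zinc and manganese importer and NF-kB target, which rose by 0.67 ± 0.06 (SE, adjusted p = 1.34e-09). NOS2, the inducible nitric oxide synthase, rose by 0.57 ± 0.09 (SE, adjusted p = 1.63e-05). The iron importer SLC11A2 rose by 0.47 ± 0.06 (SE, adjusted p = 2.02e-06).

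Genes of growth and patterning pathways changed in both directions. Of 23 YAP and TGF-beta targets measured, 6 fell and 4 rose, with a median difference of -0.10. SMAD6, an inhibitor of BMP signalling, was at 7.74, 8.00, 8.04 and 8.26 at 4 h and at 9.23, 9.18, 9.16 and 9.48 at 2 h. The groups stood apart, and SMAD6 fell by 1.25 ± 0.10 (SE, adjusted p = 3.93e-11). BAMBI, a decoy receptor of the same pathway, fell by 0.78 ± 0.09 (SE, adjusted p = 9.17e-08). CCN1, a matrix-bound protein and YAP target, was at 8.46, 8.19, 8.27 and 9.09 at 4 h and at 6.76, 6.94, 7.09 and 7.08 at 2 h. The array numbered 4 was the highest at 4 h, and CCN1 rose by 1.53 ± 0.14 (SE, adjusted p = 7.07e-10).

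Of 20 Wnt targets and antagonists measured, 6 fell and 1 rose, with a median difference of -0.11. FZD2, a Wnt receptor, was at 8.61, 8.51, 8.69 and 8.67 at 4 h and at 9.64, 9.64, 9.46 and 9.72 at 2 h, and fell by 1.00 ± 0.07 (SE, adjusted p = 7.26e-13). LGR4, the R-spondin receptor, fell by 0.62 ± 0.06 (SE, adjusted p = 6.27e-09), and RNF43, which removes Wnt receptors from the surface, fell by 0.68 ± 0.13 (SE, adjusted p = 0.000279). The riser, DKK1, had a difference of 0.19 that was not called when only the 8 arrays were fitted (adjusted p = 0.107, and 0.0842 with a replicate block added) or without control 4 h replicate 1 (adjusted p = 0.0543). Outside these lists, the Hedgehog effector GLI2 fell by 1.35 ± 0.17 (SE, adjusted p = 3.58e-07) and the lung endoderm factor GATA6 fell by 1.16 ± 0.10 (SE, adjusted p = 1.62e-10).

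Lipid genes are of interest because the silenced gene of the study acts in sphingolipid synthesis. Of 32 sphingolipid genes measured in control cells, 3 rose and 2 fell, with a median difference of 0.08. Over all probe sets 6.54% rose and 6.85% fell, so these counts lie near the background. SGPP2, an NF-kB-inducible phosphatase of sphingosine 1-phosphate, was at 9.25, 9.38, 9.06 and 8.78 at 4 h and at 8.21, 8.38, 8.09 and 7.63 at 2 h. The array numbered 4 was the lowest at each hour, and the groups did not overlap. SGPP2 rose by 1.04 ± 0.15 (SE, adjusted p = 5.52e-06). The 2 serine palmitoyltransferase subunits SPTLC1 and SPTLC2 had differences of 0.08 and -0.01, neither called. The 2 fallers were 1 without control 4 h replicate 2, without control 4 h replicate 4 or without control 2 h replicate 3.

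Of 21 fatty acid synthesis and activation genes, 5 fell and 3 rose, with a median difference of -0.12. ACACA, which makes malonyl-CoA, was at 8.97, 8.99, 8.91 and 9.04 at 4 h and at 9.48, 9.47, 9.52 and 9.46 at 2 h. The groups were tight and apart, and ACACA fell by 0.51 ± 0.07 (SE, adjusted p = 1.67e-06). ELOVL6, a fatty acid elongase, fell by 0.70 ± 0.12 (SE, adjusted p = 4.2e-05), and the acyl-CoA synthetase ACSL5 rose by 0.75 ± 0.14 (SE, adjusted p = 0.00016). CYP7B1, which hydroxylates oxysterols, rose by 1.31 ± 0.10 (SE, adjusted p = 5.43e-12).

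Several large risers belong to none of the immune lists. NAV3, a microtubule-binding protein, was at 10.81, 10.80, 10.70 and 11.25 at 4 h and at 9.38, 9.39, 9.33 and 9.64 at 2 h. The array numbered 4 was the highest at each hour, and NAV3 rose by 1.45 ± 0.12 (SE, adjusted p = 6.07e-11). NIBAN1, a stress-responsive regulator of translation, rose by 1.53 ± 0.13 (SE, adjusted p = 2.02e-10). DOCK4, an activator of the GTPase RAC1, rose by 1.34 ± 0.10 (SE, adjusted p = 3.45e-12). For both of these genes every 4 h array lay above every 2 h array.

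The same hours in cells silenced for ORMDL3 gave a second set of arrays that shares none with the controls. Its arrays numbered 4 lay at 13.3 (4 h) and 5.26 (2 h) on the leading residual component, on the same side as the controls numbered 4. There, 2119 probe sets (14.6%) were called, 1133 up (7.82%) and 986 down (6.81%), among them 47 (0.324%) up and 29 (0.2%) down at least 2-fold. Of the 1940 control calls, 1900 (97.9%) had the same sign in the knockdown arm. The same share over all 14488 probe sets was not computed, so this value has no background beside it. In both arms 1245 were called in the same direction, which is 64.2% of the control calls and 58.8% of the knockdown calls, and 1 was called in opposite directions. Of the 76 probe sets that changed at least 2-fold in control cells, 72 were also called in the same direction in the knockdown arm, 48 up and 24 down. MX1 differed by 2.13 in control cells and 1.79 in knockdown cells, IFIT1 by 1.62 and 1.71, and NR4A3 by -1.56 and -1.62.

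The difference between the arms was itself tested, as the control change minus the knockdown change. No probe set was called by limma. At an unadjusted p under 0.05 there were 649 (4.48%), and with the trended, robust variance model 1 was called, for DKK1, and 626 had an unadjusted p under 0.05. The smallest adjusted p was 0.206, and the median standard error of this difference was 0.138. IL15RA had levels of 9.13 ± 0.06 at 4 h and 7.98 ± 0.06 at 2 h (SD, n = 4 each) in control cells. In knockdown cells it had 8.89 ± 0.06 at 4 h and 8.17 ± 0.09 at 2 h (SD, n = 4 each). Its change was 1.15 in control and 0.73 in knockdown cells, and the difference of 0.42 had a 95% interval of 0.25 to 0.59 and an adjusted p of 0.206. DKK1, a secreted Wnt antagonist, changed by 0.19 in control and 0.57 in knockdown cells, and the interval of the difference was -0.53 to -0.23 (adjusted p = 0.206).

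FGF18, a fibroblast growth factor, was the gene called in opposite directions. It rose by 0.34 in control cells (adjusted p = 0.0201) and fell by 0.33 in knockdown cells (adjusted p = 0.0253). The difference of 0.66 had an interval of 0.38 to 0.94 and an adjusted p of 0.25. Its call in control cells was lost when only the 8 arrays were fitted (adjusted p = 0.0756, and 0.0714 with a replicate block added), without control 4 h replicate 3 (0.131), without control 2 h replicate 1 (0.059) and without control 2 h replicate 3 (0.0777). IRF1 fell by 0.95 in control and by 1.50 in knockdown cells, with an interval of 0.07 to 1.02 for the difference (adjusted p = 0.983). IDO1 rose by 1.86 in control and 1.16 in knockdown cells, with an interval of 0.02 to 1.37 (adjusted p = 0.983).

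**Figure D3:**
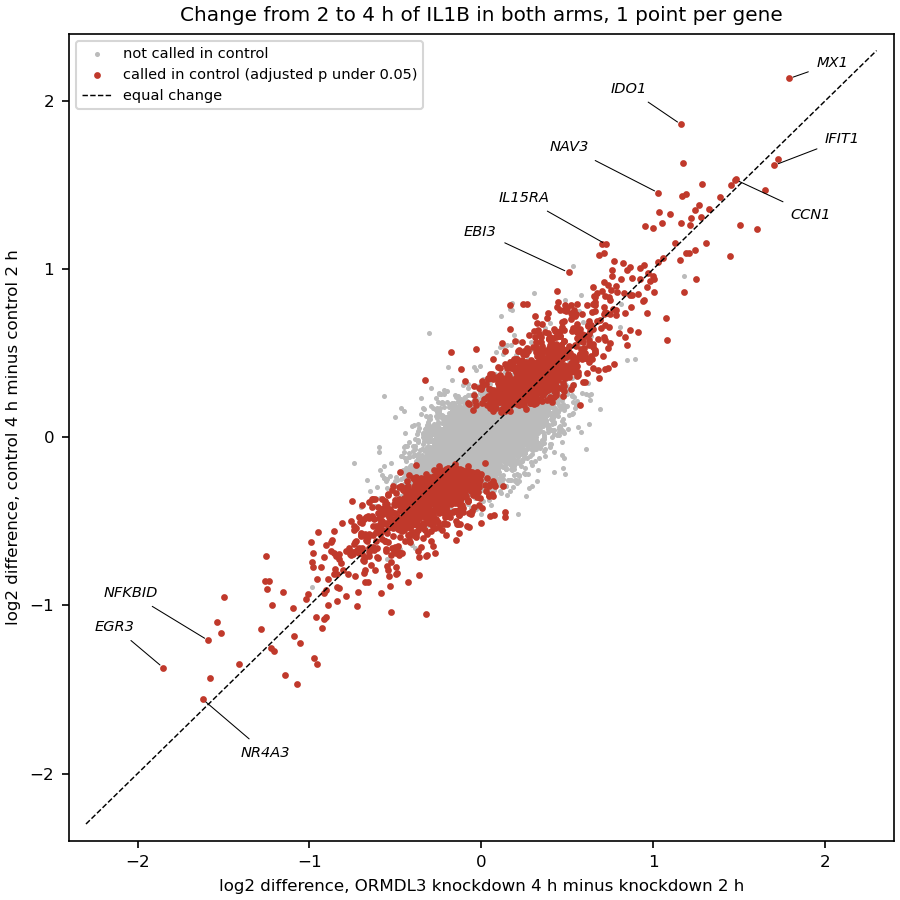
Log2 difference between 4 h and 2 h of IL1B in control cells (vertical axis) and in ORMDL3 knockdown cells (horizontal axis), 1 point per gene, red where called in control cells, with a dashed line of equal change. MX1 lies at 2.13 in control and 1.79 in knockdown cells, EGR3 at -1.37 and -1.85, and IL15RA at 1.15 and 0.73.

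The later control arrays place the 2 to 4 h interval in the course of each gene, as levels without a test. MX1 averaged 5.30, 7.43, 8.81 and 8.25 at 2, 4, 8 and 10 h, and IFIT1 averaged 6.00, 7.62, 9.25 and 8.20. Both had their highest mean at 8 h, and CCN1, at 6.97, 8.50, 9.75 and 9.58, had the same order of means. IL15RA averaged 7.98, 9.13, 8.11 and 7.65, and TNFAIP6 averaged 9.52, 10.87, 9.61 and 9.02, so that their means were highest at 4 h. NAV3, at 9.43, 10.89, 9.63 and 9.41, was also highest at 4 h.

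Fallers differed in the same way. NFKBID averaged 11.14, 9.93, 8.74 and 8.74 at 2, 4, 8 and 10 h, and GATA6 averaged 9.89, 8.72, 7.50 and 7.52, lower at both later hours than at 4 h. SMAD6, at 9.26, 8.01, 9.30 and 9.62, and GLI2, at 8.64, 7.30, 8.66 and 9.29, had their lowest mean at 4 h. The chemokine CCL20 averaged 12.53, 12.57, 10.81 and 10.89 over the same hours, and ICAM1 averaged 13.10, 13.02, 11.65 and 11.13, both lower at 8 and 10 h than at 2 and 4 h.

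**Figure D4:**
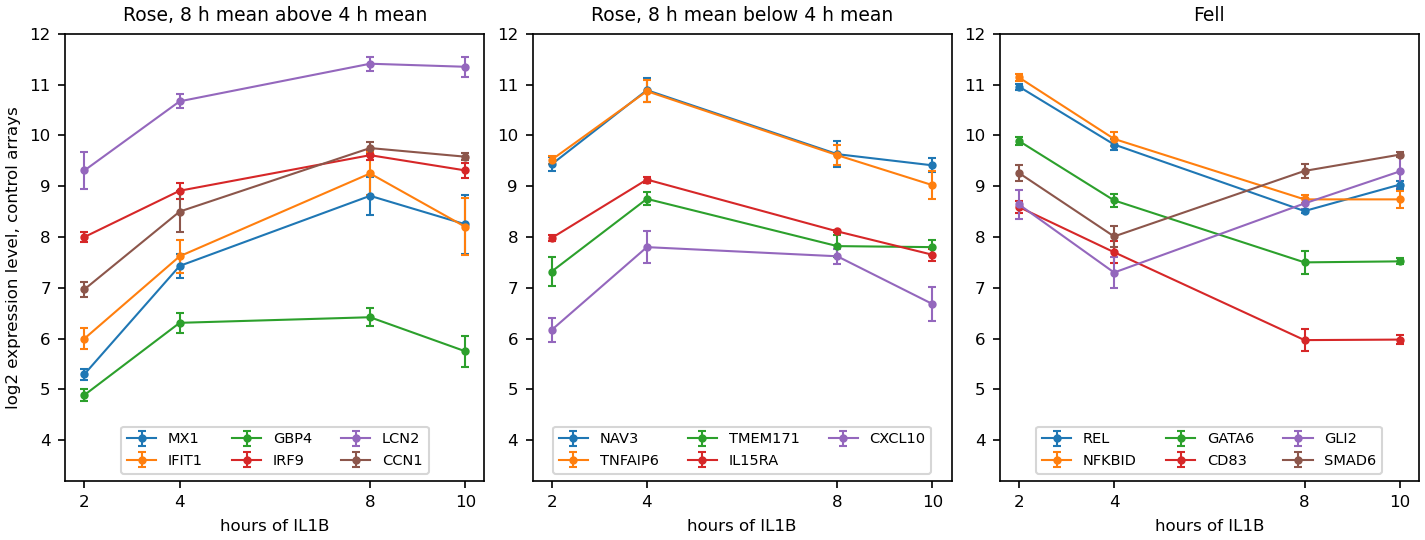
Mean log2 level on the control arrays (vertical axis) at 2, 4, 8 and 10 h of IL1B (horizontal axis), with bars of 1 SD over 4 arrays (3 at 8 h), for genes called between 2 and 4 h. The left panel holds risers whose mean at 8 h was above that at 4 h, such as MX1 at 8.81 and 7.43, the middle panel risers whose mean at 8 h was below that at 4 h, such as IL15RA at 8.11 and 9.13, and the right panel fallers.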

How the data were processed

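The authors deposited log2 expression levels of 14488 probe sets for 38 Affymetrix arrays of A549 RNA, and these log2 values were used as deposited. The submitters' processing notes name hg19, RMA, limma 3.22.7 and Affymetrix Power Tools, without a role. The selection of probe sets for the table is not described in those notes or the labels. The platform annotation gave 1 symbol to 12132 probe sets, several to 628 and none to 1728, and 12121 were matched to current RefSeq gene records by Entrez identifier. For each gene the probe set with the highest mean over all arrays stood for it.

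A model with 1 mean per group was fitted to all 38 arrays with limma 3.58.1 in R 4.3.3 (28 residual degrees of freedom, empirical Bayes moderation). The contrasts were control 4 h minus control 2 h, the same in the knockdown arm, and their difference, each adjusted by Benjamini-Hochberg over all 14488 probe sets and called at 0.05. The number of arrays limits the precision, with a median standard error of 0.0976 for the control contrast. The fits were tested on simulated data with noise drawn independently for each array. Deviations shared by arrays of the same number were not simulated, so that test does not cover them. The genes, lists and contrast were chosen with earlier results of these data known. Named genes were the 20 highest and 20 lowest called, up to 5 called members of each of 36 lists, a set of IL1B genes and ORMDL3, and the 5 smallest p-values of the difference between the arms. Members of lists outside this rule, given as single differences, were chosen after their values were seen, and not every gene the rule took is printed.

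Groups shared replicate numbers. Between control 4 h and control 2 h, arrays with the same number deviated together (correlations of 0.29, 0.24, 0.13 and 0.62 over probe sets). The numbers may therefore pair the control arrays. The main fit did not pair them, and its values are printed unless another fit is named. The value with the replicate block is given where it changed a call. In the knockdown arm the correlations were -0.01, 0.11, 0.37 and 0.03. The fixed block was fitted to only the 8 arrays compared, and the random block to all 38. A call that changed with the fixed block may therefore reflect the smaller fit as well as the block. Alternatives were these blocks, only the arrays compared, a trended and robust variance, array weights, quantile or median scaling, a filter on dim probe sets, and leaving out arrays singly or by number. Promoter windows came from RefSeq (GRCh38.p14).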

Additional observations from a re-analysis of the deposited data

Results flagged for a closer look

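Within groups of 4 arrays, 1 array stood far from the other 3 for 11 of the 348 groups looked at among the named genes (2 groups per gene), fewer than the 1 in 20 that chance gives. Of the 11, 5 were on control 2 h replicate 4, 2 on control 4 h replicate 4, 2 on control 4 h replicate 2, and 1 each on control 4 h replicate 3 and control 2 h replicate 2.

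On control 2 h replicate 4, IRF1 was at 11.42 against 11.56 to 11.57 on the other 3 arrays, and ICAM1 was at 12.90 against 13.16 to 13.17. The stress factor ATF3 was at 7.34 there against 7.94 to 8.03, the acyl-CoA synthetase ACSL4 at 9.35 against 9.53 to 9.55, and the mRNA-destabilising protein ZFP36L2 at 10.61 against 10.23 to 10.29. On control 4 h replicate 4, GATA6 was at 8.91 against 8.65 to 8.68 and the pro-apoptotic gene BAK1 at 8.42 against 8.68 to 8.71. On control 4 h replicate 2, GBP3 was at 8.52 against 8.14 to 8.18 and IL1A at 10.82 against 10.52 to 10.57. CYP7B1 was at 9.02 on control 4 h replicate 3 against 9.25 to 9.29, and ORMDL3 was at 7.38 on control 2 h replicate 2 against 7.11 to 7.15.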

How the results depend on the processing

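Under 20 alternatives for the control contrast, 3413 values of named genes were recomputed. Of these, 3166 kept their side of the threshold, 233 lost the call and 14 gained it. Among values of genes called in the main fit, 0 changed direction. Direction was not followed for named genes that were not called. Of the 164 named genes that were called, 121 kept the call in every alternative run, and 2 of the 49 that changed at least 2-fold lost it in at least 1 (SERPINB3 and TMEM88). Against 1940 called, 1263 were called without dim probe sets, among 7244 tested, and without all arrays numbered 1, 2, 3 or 4 there were 1212, 1225, 1237 and 1507 calls. Those that rose were then 581, 627, 646 and 732, and those that fell 631, 598, 591 and 775. Without dim probe sets 582 fell, 19 rose at least 2-fold and 13 fell at least 2-fold. Leaving out single arrays gave 1595 to 1756 calls, and fitting only the 8 arrays gave 1322, with 3 risers among the interferon regulatory and JAK-STAT genes, 2 in MHC class I presentation, 5 in adhesion and 1 in sphingolipid genes. With the replicate number as a fixed block, which was fitted to only the 8 arrays, 2226 were called, 1685 of them among the 1940, and as a random block (correlation 0.19) 2487. In that fixed-block fit CCL5 and E2F2 lost their call, as did PSMB10, PSME1, PLA2G4C, MCM10, SGMS1, DKK1 and FGF18, which also lost it when the 8 arrays were fitted without a block. IL6, FOS and ATF3 were gained, and no other call of a named gene changed. Of these gains, that of IL6 was also seen when the 8 arrays were fitted without a block. With the random block no called named gene lost its call. In the knockdown arm, against 2119, the calls were 1317 with only the arrays compared, 1365 with the fixed replicate block added to that fit, 1396 without dim probe sets, and 1136, 1337, 1345 and 2119 without all arrays numbered 1, 2, 3 or 4. The difference between the arms gave 1 call with the trended, robust variance and 0 under the other alternatives run. The causes were not tested, apart from fewer arrays or probe sets where these were left out. Of 679 list medians recomputed, 29 moved by more than their spread. No detection calls were used, so dim probe sets limit the fold changes given.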

Other observations

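Small nucleolar RNAs, which guide the modification of ribosomal RNA and are mostly spliced out of host introns, were measured by 115 genes with 1 symbol. Of these, 4 rose and 1 fell, with a median difference of 0.19 against -0.01 over all probe sets. Over all probe sets 6.54% rose and 6.85% fell, so both counts lay below the background in the main fit. The count depended on single arrays: 1 rose without control 4 h replicate 2, 2 without control 2 h replicate 1 and 15 without control 4 h replicate 4, and 20 rose and 2 fell with the replicate number as a block. SNORA56, which lies on the X chromosome, had levels of 5.36, 5.56, 5.71 and 5.87 at 4 h and 4.87, 5.03, 4.93 and 4.76 at 2 h. The groups did not overlap, and it rose by 0.72 ± 0.14 (SE, limma adjusted p = 0.000265). In the knockdown arm 1 rose and 0 fell, beside 7.82% and 6.81% of all probe sets.

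Stress and metabolic genes changed in both directions. The list counts given here stand beside 6.54% of all probe sets that rose and 6.85% that fell. STC2, a secreted glycoprotein of the ATF4 response, rose by 1.26 ± 0.18 (SE, adjusted p = 2.88e-06), while TRIB3, a pseudokinase of the same response, fell by 0.70 ± 0.08 (SE, adjusted p = 4.1e-08). The list gave 5 risers and 5 fallers among 30, with 3 fallers without control 4 h replicate 2 or without control 2 h replicate 1. PDK4, which switches off pyruvate dehydrogenase, rose by 1.08 ± 0.15 (SE, adjusted p = 4.02e-06) among 24 glucose uptake and glycolysis genes, of which 3 rose and 3 fell. Only 1 of them fell without control 4 h replicate 2, without control 4 h replicate 4 or without control 2 h replicate 1. MDM2, the p53 inhibitor, rose by 0.55 ± 0.06 (SE, adjusted p = 7.57e-08), and GADD45A, a growth-arrest gene, fell by 0.59 ± 0.10 (SE, adjusted p = 4.89e-05). HMOX1, haem oxygenase 1, rose by 0.42 ± 0.09 (SE, adjusted p = 0.000663), and NFE2L2, the factor that drives it under oxidant stress, fell by 0.37 ± 0.07 (SE, adjusted p = 0.000503). PTGER4, a prostaglandin E2 receptor, fell by 0.93. Of 19 cholesterol synthesis and uptake genes 5 fell and 0 rose, also at an unadjusted p under 0.05, and 2 fell without control 4 h replicate 3. Of 34 DNA replication genes 5 fell and 1 rose, and 2 fell without control 4 h replicate 2. Of 22 apoptosis regulators 5 rose and 1 fell, and 3 rose without control 4 h replicate 2 or 3 or without control 2 h replicate 2, 3 or 4. Of 21 oxidative phosphorylation genes 0 were called by limma, 1 rose at an unadjusted p under 0.05 and 1 was called with the replicate number as a block. Of 28 ribosome biogenesis genes 1 fell, and of 23 mitosis genes 1 rose, which was 0 without control 4 h replicate 4.

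CDH5, an endothelial cadherin, had levels of 6.73, 6.67, 6.69 and 6.78 at 4 h and 6.29, 6.19, 6.28 and 6.19 at 2 h. It rose by 0.48 ± 0.11 (SE, adjusted p = 0.00304), with no overlap between the groups, while COL1A1, the other fibroblast or endothelial marker measured, was at 6.65 ± 0.11 at 4 h and 6.74 ± 0.12 at 2 h (SD, n = 4 each).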
